A study of Mus musculus with 24 samples.

Results

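The comparison set zone V2, the bottom zone of the mouse jejunal villus, against zone V1, the zone labelled most bottom. Its members are the 4 V2 libraries and the 4 V1 libraries among the 24 libraries of the series, taken by their zone labels and joined by the mouse each came from. All genes that passed a filter on low counts were compared, which left 9328 of 17811 identifiers. Both zones came from the same 4 male C57BL/6 mice, 10 weeks old and kept on regular chow, and the labels name no treatment. Jejunal epithelial cells were released, labelled with antibodies to CD73 and CD26, and sorted by fluorescence into 6 zones per mouse. The zones are therefore ranges of 2 surface proteins and not cut tissue. Each library is a bulk pool of sorted cells, read by mcSCRB-seq, which captures polyadenylated RNA and counts each molecule once through a unique molecular identifier (UMI). Every level below is a CPM, a UMI count scaled to a library total of 1000000 after TMM correction of that total. Where 4 values of a zone are given, they stand in the order of mice 1 to 4.

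The villus is the finger-like fold through which the small intestine absorbs food. Its cells are born in the crypts, leave them at the villus bottom and move toward the tip, where they are shed. On the way absorptive enterocytes build a brush border of microvilli that carries digestive enzymes and nutrient transporters, and they package dietary fat with apolipoproteins into chylomicrons. Goblet cells, which secrete the mucin gel, and the rarer enteroendocrine and tuft cells travel among them, while Paneth cells remain in the crypt base.

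The V2 libraries held 1247768 to 2266261 UMIs and 13301 to 14554 genes with a UMI, against 1490213 to 1602022 UMIs and 13769 to 14181 genes in the V1 libraries. In mice 1, 3 and 4 the V2 and V1 libraries carried the same i7 index, but in mouse 2 the V1 library carried the index of mouse 1 and the V2 library another one. The V2 library of mouse 1 stood apart from the other V2 libraries in summed shares of transcripts that are given below with the goblet, Paneth and mitochondrial genes. Dpp4, the gene of CD26, had 329, 252, 346 and 374 CPM in V2, against 140.2, 97.2, 200.4 and 150.4 CPM in V1, with no overlap between the zones (log2 change 1.16 ± 0.14, adjusted p = 6.4e-07). Because the zones were sorted on the CD26 protein, this difference serves only as a check of the zone labels. Nt5e, the gene of CD73, was near 0 in both zones, at 1.76, 1.71, 6.05 and 0.54 CPM in V2, against 1.58, 1.72, 1.24 and 0 CPM in V1, and was not called (log2 change 0.91 ± 0.68, adjusted p = 0.4). The epithelial adhesion gene Epcam had 1373, 1130.2, 1512 and 1587 CPM in V2, against 1145, 1199, 1454 and 1425 CPM in V1, and its zones overlapped. A list of 14 stromal, endothelial and blood genes summed to 10.1 to 16.8 UMIs per 1000000 in V2 and 9.9 to 46.8 in V1, and no member passed the filter.

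Of the 9328 genes tested, 858 (9.20%) were higher in V2 and 534 (5.72%) were lower, together 14.9%. The test was edgeR's quasi-likelihood test with a term for zone and a term for mouse over all 24 libraries, and a gene was called at a Benjamini-Hochberg adjusted p under 0.05. By size, 200 genes were called at least 2-fold higher and 48 at least 2-fold lower, and the median log2 change was 0.74 among the genes called higher and -0.60 among those called lower. Over all genes tested the median was 0.01, with a 5th percentile of -0.64 and a 95th percentile of 0.83. In 1312 of the called genes the direction was the same in 4 of 4 mice. Levels in the V2 libraries lay wholly above those in the V1 libraries for 382 genes (4.10%) and wholly below for 252 (2.70%). Without the mouse term 133 genes (1.43%) were called higher and 8 (0.0858%) lower, and all of these 141 were called with it. Leaving out mouse 2, the mouse whose libraries carried different indexes, left 589 higher (6.31%) and 377 lower (4.04%). Calls were 589 (6.31%) higher and 492 (5.27%) lower without mouse 1. They were 545 (5.84%) and 204 (2.19%) without mouse 3, and 545 (5.84%) and 255 (2.73%) without mouse 4. A fit of the V2 and V1 libraries alone called 741 genes (7.94%) higher and 633 (6.79%) lower. With libraries scaled by total UMIs alone, 602 genes (6.45%) were higher and 819 (8.78%) lower. Rises then made up 42.4% of the calls, against 61.6% with TMM, and the median of all genes stood at -0.09.

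**Figure D1:**
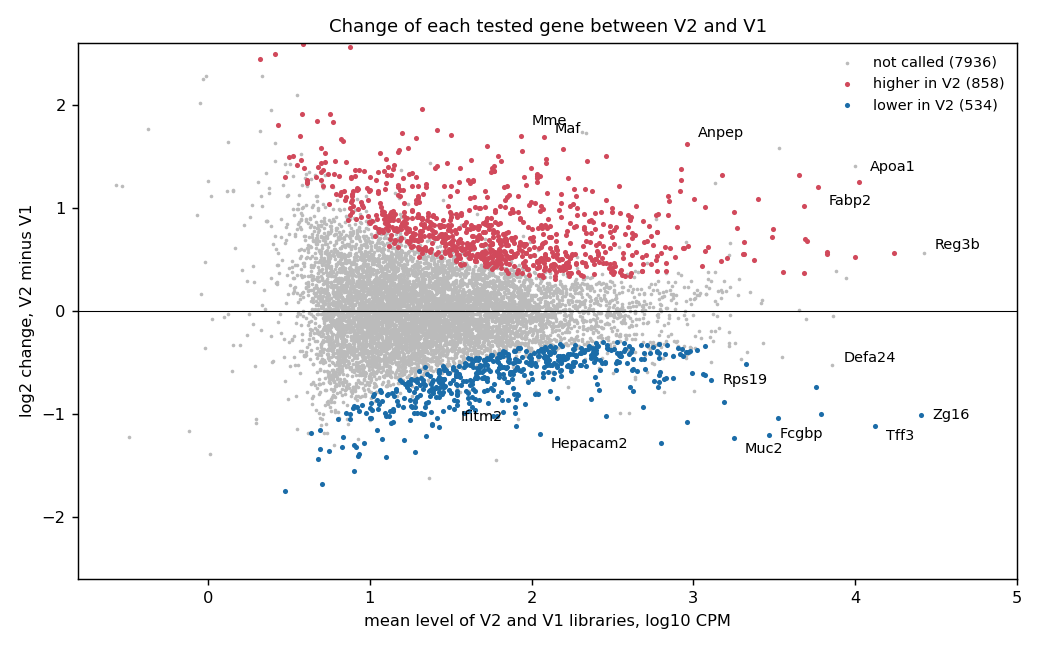
Change of each tested gene between V2 and V1: log2 change (V2 minus V1) against the mean level of the 8 libraries (log10 CPM), 1 point per gene, with 858 genes called higher in V2 in red, 534 called lower in blue and the rest in grey. Enterocyte genes such as Mme, Anpep and Apoa1 lie high and goblet cell genes such as Muc2, Fcgbp and Tff3 lie low, and 5 genes lie outside the plotted range of 2.6 in either direction.

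The largest rises were taken from called genes that averaged 50 CPM or more and moved in 1 direction in all mice. They included Mme, Maf, Anpep, Apob, Dnase1, Slc13a2, Cyp2b10, Pdzk1, Gda, Asah2, Slc15a1, Gk and Cobl. Among these are brush-border enzymes (Mme, Anpep and the neutral ceramidase Asah2), carriers of peptides and dicarboxylates (Slc15a1 and Slc13a2), and cytoplasmic enzymes such as glycerol kinase (Gk). The 14 largest falls by the same rule were Muc2, Fcgbp, Hepacam2, Foxa3, Tff3, Ccl6, Clca1, Lrrc26, Tm4sf4, Ramp1, Zg16, Spink4, Fxyd3 and Ifitm2. Of these, 10 were on the goblet cell list. The lists of genes used below, with the number of members tested, are those of the plot of list members.

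**Figure D2:**
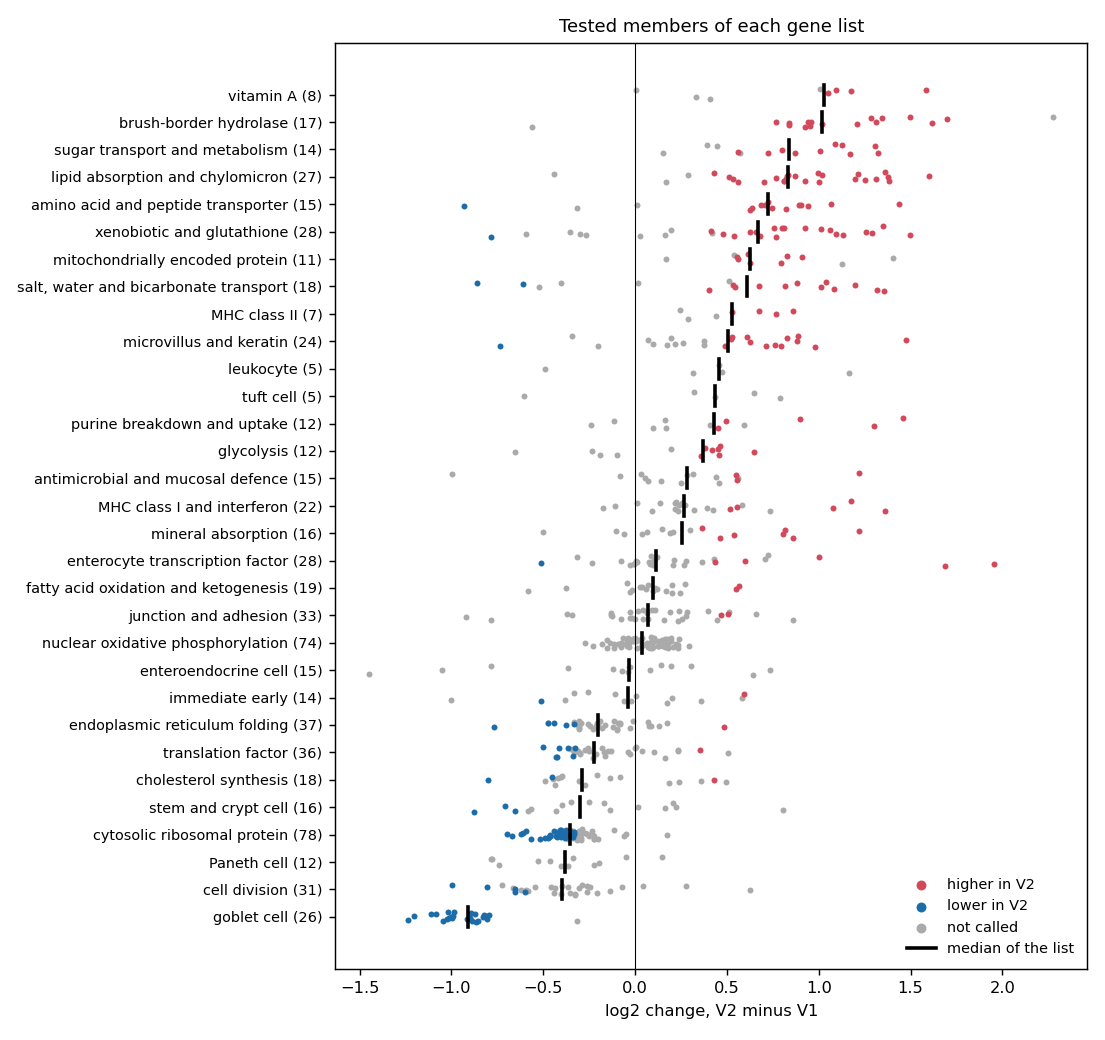
Tested members of each gene list with at least 5 tested members: log2 change (V2 minus V1) on the horizontal axis, 1 point per gene, with the number tested in brackets and a black bar at the list's median. Red points were called higher in V2, blue points lower and grey points not called, and the medians run from -0.91 for the goblet cell list to 1.03 for the vitamin A list.

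Brush-border hydrolases, the enzymes that finish digestion of peptides and sugars at the cell surface, were higher in V2: 15 of the 17 tested were called higher and 0 lower, with a median log2 change of 1.02. Over all genes the median was 0.01 and 9.20% were called higher. In 11 of the 17 every V2 library lay above every V1 library, against 4.10% of all genes, and 11 were called without the mouse term. Mme, which encodes the membrane peptidase neprilysin, had 142, 109, 155 and 114 CPM in V2, against 35.3, 25.7, 65 and 39.8 CPM in V1. The zones of Mme did not overlap, and mouse 3 was highest in both (log2 change 1.70 ± 0.17, adjusted p = 2.7e-08). Anpep, aminopeptidase N, had 2109.8, 668, 1344 and 1401 CPM in V2, against 461, 178, 566 and 580.3 CPM in V1. Mouse 2 was lowest in both zones and mouse 1 highest in V2 only, and the zones did not overlap (log2 change 1.62 ± 0.22, adjusted p = 4.9e-05). Ace, a dipeptidyl carboxypeptidase, had 139, 159, 197 and 144 CPM in V2, against 66.9, 38.9, 95.9 and 60.6 CPM in V1 (log2 change 1.31 ± 0.16, adjusted p = 3.7e-07). Ggt1, gamma-glutamyltransferase, had 457, 363, 554 and 548 CPM in V2, against 184, 153, 275 and 222 CPM in V1 (log2 change 1.21 ± 0.14, adjusted p = 3.1e-07). The sugar-splitting enzymes of the list, singled out here after their values were seen, moved the same way: log2 changes were 1.28 ± 0.19 for lactase (Lct), 1.35 ± 0.16 for trehalase (Treh), 0.96 ± 0.14 for maltase-glucoamylase (Mgam) and 0.93 ± 0.28 for sucrase-isomaltase (Sis), whose call was lost without mouse 1 or 4. Alpi, the intestinal alkaline phosphatase, had 336, 328, 357 and 383 CPM in V2, against 227, 149.8, 206 and 209 CPM in V1 (log2 change 0.84 ± 0.15, adjusted p = 0.00017).

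After many hydrolase genes were seen to rise together, the windows of 250 bases upstream of the transcription start were searched. The letters were those of several families of transcription factors and of the general TATA box. They came from the RefSeq promoter table on GRCm38.p6, 1 window per gene, which covered 6636 of the genes tested. The letters CAAAGTCC on either strand, a core that the enterocyte regulator HNF4 recognises, stood in the window of 22 of 632 genes called higher (3.48%), 7 of 295 called lower (2.37%), 98 of 6636 tested (1.48%) and 330 of 27025 with a window (1.22%). Among the hydrolases 3 of 15 windows held them, those of Ace, Alpi and Treh, while none of 23 lipid absorption windows and none of 16 goblet cell windows did. The TATA box letters TATAAA stood in 11.1% of the windows of genes called higher, 6.10% of those called lower, 6.66% of those tested and 13.0% of all. Forkhead letters TGTTTAC stood in 1.9% of the windows of genes called higher, 4.07% of those called lower and 2.2% of those tested. In the same order ETS letters ACCGGAAG stood in 1.58%, 2.71% and 3.59%. GATA letters AGATAAG stood in 2.22%, 1.69% and 1.58%, and CDX letters TTTATGG in 2.06%, 2.03% and 1.45%. These were the 6 sets of letters searched, a match is a description of the sequence and not a bound site, and no test was made. The 3 hydrolase windows and that of Rbp2, a vitamin A carrier gene described below, are shown because they hold the letters, with CAAAGTCC or its reverse complement in capitals and each window written in the direction of transcription.
Ace (chr11:105967698-105967947, plus strand): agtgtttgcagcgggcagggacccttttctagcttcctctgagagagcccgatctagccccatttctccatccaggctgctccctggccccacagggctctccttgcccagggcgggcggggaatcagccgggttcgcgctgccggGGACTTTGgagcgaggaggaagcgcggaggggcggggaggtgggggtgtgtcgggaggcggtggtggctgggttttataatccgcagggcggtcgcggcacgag
Alpi (chr1:87101607-87101856, minus strand): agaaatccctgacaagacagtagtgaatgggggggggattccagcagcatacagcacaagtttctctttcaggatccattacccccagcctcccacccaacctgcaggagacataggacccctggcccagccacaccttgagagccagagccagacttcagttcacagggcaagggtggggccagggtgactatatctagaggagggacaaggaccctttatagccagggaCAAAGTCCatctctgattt
Treh (chr9:44672983-44673232, plus strand): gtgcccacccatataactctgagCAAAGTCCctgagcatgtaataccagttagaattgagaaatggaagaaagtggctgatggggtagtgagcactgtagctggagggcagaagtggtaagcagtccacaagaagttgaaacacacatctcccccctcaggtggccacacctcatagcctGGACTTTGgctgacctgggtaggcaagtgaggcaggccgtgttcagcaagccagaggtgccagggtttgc
Rbp2 (chr9:98490287-98490536, plus strand): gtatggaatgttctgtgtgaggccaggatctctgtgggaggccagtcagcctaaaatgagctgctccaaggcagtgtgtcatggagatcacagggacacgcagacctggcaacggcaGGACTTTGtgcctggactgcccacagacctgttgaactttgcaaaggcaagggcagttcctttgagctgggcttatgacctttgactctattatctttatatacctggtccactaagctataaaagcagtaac
In Ace the letters begin 104 bases before the start on the opposite strand, in Alpi 19 bases before it on the gene's own strand, in Rbp2 133 bases before it on the opposite strand, and in Treh at 2 places, 227 bases before it on the gene's own strand and 70 on the opposite one. Their genes sit at chr11:105967945-105989964 (Ace) and chr9:98486115-98509781 (Rbp2) in the GENCODE M21 annotation of the same build, which starts Rbp2 farther upstream than RefSeq does.

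Genes of fat absorption and chylomicron assembly were higher in V2. Of 27 tested, 24 were called higher and 0 lower (9.20% and 5.72% of all genes), with a median log2 change of 0.83, and 9 did not overlap between zones (4.10% of all genes). Without the mouse term 7 were called. Apoa1, the main apolipoprotein of high-density lipoprotein, had 12600.2, 8239, 20827 and 17207 CPM in V2, against 4504, 3072, 10436 and 7485 CPM in V1. The mice stood in the same order in both zones, with mouse 3 highest and mouse 2 lowest, and the V1 library of mouse 3 lay above the V2 library of mouse 2, so the zones overlapped although each mouse was higher in V2 (log2 change 1.25 ± 0.15, adjusted p = 3.7e-07). Apoc3, an apolipoprotein that slows triglyceride clearance, had 1244, 497, 1732 and 1356 CPM in V2, against 316, 220.2, 883 and 493 CPM in V1 (log2 change 1.38 ± 0.15, adjusted p = 1.3e-07), with the same overlap. Apob, the structural protein of the chylomicron, had 92.4, 24, 127 and 76.1 CPM in V2, against 10.5, 17.7, 44.5 and 31.5 CPM in V1 (log2 change 1.60 ± 0.29, adjusted p = 0.0014). Mouse 1 showed the widest gap for Apob and mouse 2 the narrowest, and in a fit of V2 and V1 alone its adjusted p was 0.058. Fabp2, the intestinal fatty acid binding protein, had 8185, 4113, 10327 and 9974 CPM in V2, against 2709.9, 2002, 5406 and 4091 CPM in V1 (log2 change 1.20 ± 0.15, adjusted p = 9.2e-07). Creb3l3, a membrane-bound transcription factor that drives apolipoprotein genes, had 263, 217, 260.2 and 272 CPM in V2, against 111, 101, 150.3 and 144 CPM in V1 (log2 change 1.00 ± 0.14, adjusted p = 4.5e-06), with all V2 libraries above all V1 libraries. Further members cover each step of the route: the fatty acid transporter Slc27a4 (1.00 ± 0.14) and acyl-CoA synthetase Acsl5 (0.93 ± 0.15), the triglyceride-forming acyltransferases Mogat2 (0.81 ± 0.15), Dgat1 (0.56 ± 0.13) and Dgat2 (0.82 ± 0.16), the lipid-loading protein Mttp (0.87 ± 0.17), and the sterol carriers Npc1l1 (0.81 ± 0.16), Abcg5 (0.70 ± 0.13) and Abcg8 (0.77 ± 0.13), each with its log2 change ± SE in brackets. These were named after their values were seen, and all were higher in 4 of 4 mice.

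Sugar and amino acid transport genes also rose. Of 14 genes of sugar transport and metabolism, 10 were called higher and 0 lower, with a median log2 change of 0.84, and 4 without the mouse term. Over all genes 9.20% were called higher and 5.72% lower, and 1.43% were called higher without the mouse term. Slc5a1, the sodium-coupled glucose transporter SGLT1 of the brush border, had 1178, 1066, 1433 and 1788 CPM in V2, against 612, 364, 734 and 866 CPM in V1. Every V2 library lay above every V1 library, and mouse 4 was highest and mouse 2 lowest in both zones (log2 change 1.09 ± 0.18, adjusted p = 0.00021). Slc5a11, a sodium-coupled inositol transporter, had 110.0, 58.9, 125 and 106 CPM in V2, against 49, 19.4, 62.5 and 52.9 CPM in V1 (log2 change 1.12 ± 0.19, adjusted p = 0.00028), and its zones overlapped by the V2 library of mouse 2 alone. The fructose pathway enzyme ketohexokinase (Khk, log2 change 0.72 ± 0.13, adjusted p = 0.00024) was higher in 4 of 4 mice. Of 15 amino acid and peptide transporters, 12 were called higher and 1 lower, the latter near the 5.72% of all genes. Their median was 0.72, and without the mouse term 4 were higher and 0 lower. Slc15a1, the di- and tripeptide carrier PEPT1, had 139.9, 155, 222 and 189 CPM in V2, against 53.2, 29.7, 97.1 and 92.2 CPM in V1, with no overlap (log2 change 1.43 ± 0.19, adjusted p = 8.3e-06). Slc6a19, the neutral amino acid carrier of the brush border, had 89.3, 87.5, 88.5 and 106 CPM in V2, against 42.7, 40.0, 43.3 and 51.1 CPM in V1, also without overlap (log2 change 1.07 ± 0.15, adjusted p = 5.8e-06). The basolateral carrier Slc7a7 (log2 change 0.91 ± 0.13, adjusted p = 8.5e-06), its partner chain Slc3a2 (log2 change 0.74 ± 0.18, adjusted p = 0.0053) and the carrier Slc43a2 (log2 change 0.89 ± 0.15, adjusted p = 0.00014) were higher as well. The member called lower was Slc1a5, a glutamine carrier, with 23.7, 37.7, 12.9 and 12.4 CPM in V2, against 41.6, 57.8, 27.2 and 32.1 CPM in V1 (log2 change -0.93 ± 0.24, adjusted p = 0.0085), a call lost without mouse 4.

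**Figure D3:**
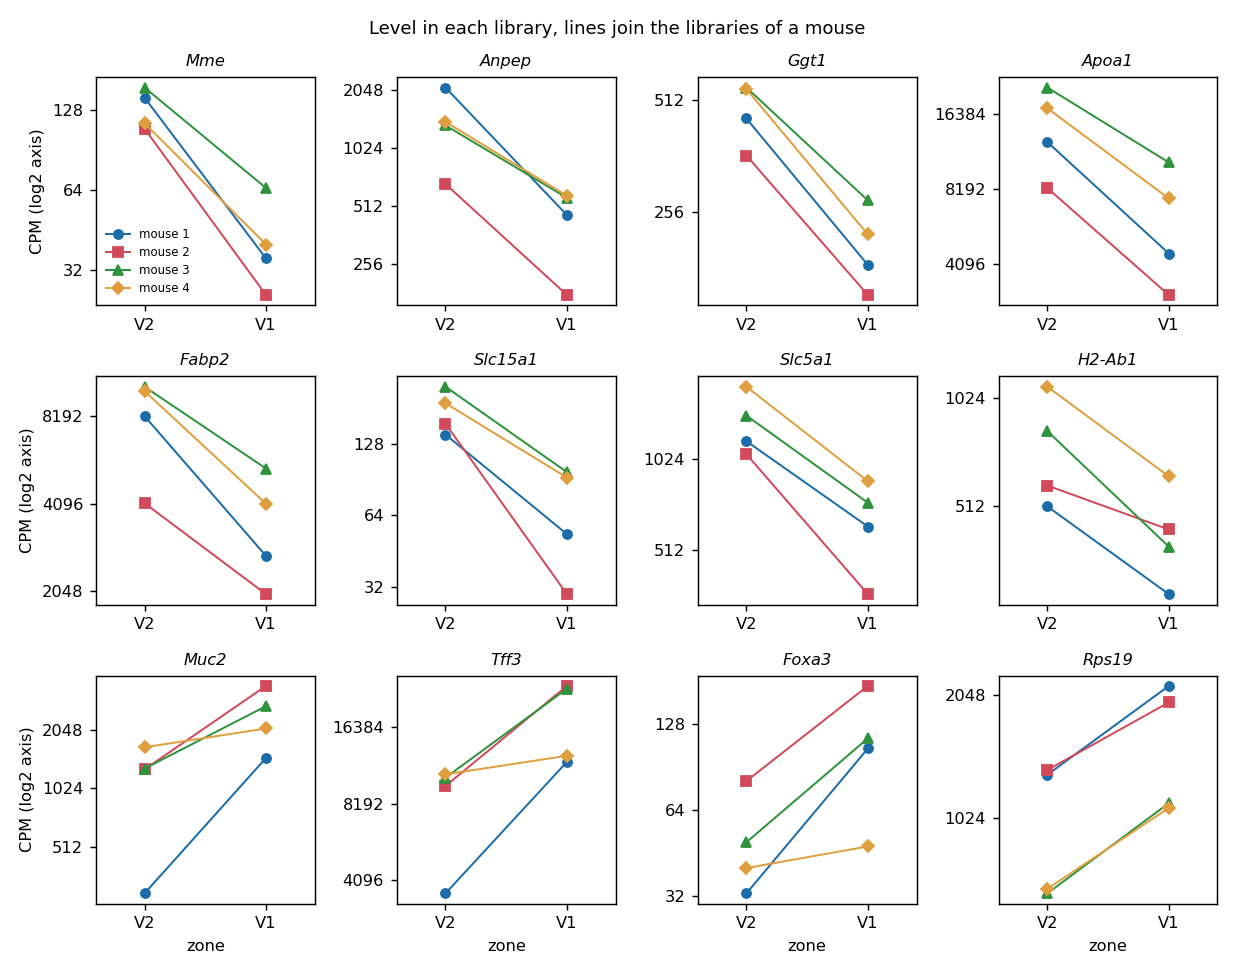
Level of 12 genes in each library (CPM on a log2 axis), V2 on the left and V1 on the right of each panel, with lines joining the 2 libraries of a mouse. The 8 genes of the upper rows were higher in V2 in 4 of 4 mice, and Muc2, Tff3, Foxa3 and Rps19 were lower in 4 of 4.

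Structural genes of the brush border were higher in V2 in part: 13 of 24 microvillus and keratin genes were called higher and 1 lower, with a median log2 change of 0.50, and 6 were called higher without the mouse term. The shares of all genes were 9.20% called higher and 5.72% called lower. Pdzk1, a scaffold that anchors transporters in the membrane, had 150.4, 102, 225 and 245 CPM in V2, against 40.6, 40.6, 96.5 and 84.4 CPM in V1. Its zones did not overlap, and mice 3 and 4 were above mice 1 and 2 in both (log2 change 1.48 ± 0.15, adjusted p = 3.6e-08). The actin bundlers Espn (log2 change 0.98 ± 0.13, adjusted p = 2.8e-06) and Pls1 (log2 change 0.83 ± 0.13, adjusted p = 1.5e-05) and the motor of the microvillus tip Myo7b (log2 change 0.89 ± 0.14, adjusted p = 3.6e-05) were each higher in 4 of 4 mice. The actin organiser Cobl, which is outside the list, had 58.9, 84, 109 and 71.8 CPM in V2, against 19, 15.4, 52 and 43.4 CPM in V1 (log2 change 1.38 ± 0.24, adjusted p = 0.00051). The member called lower was Krt18, a keratin of simple epithelia, with 381, 557, 428 and 419 CPM in V2, against 636, 1099.7, 749 and 546 CPM in V1 (log2 change -0.74 ± 0.13, adjusted p = 0.00022). Krt19, another such keratin, had 1746, 1443, 1374 and 1329.6 CPM in V2, against 1949, 1634, 1831 and 1952 CPM in V1 and was not called (adjusted p = 0.15). It was lower in 4 of 4 mice, and was called lower in the fit of V2 and V1 alone (adjusted p = 0.036) and among genes averaging 50 CPM or more (adjusted p = 0.042). Of 33 junction and adhesion genes, 2 were called higher and 0 lower, with a median of 0.07, where 9.20% of all genes were called higher. They were Ctnnd1, p120 catenin (log2 change 0.47 ± 0.14, adjusted p = 0.018), and Cgn, cingulin (log2 change 0.51 ± 0.17, adjusted p = 0.035). The call of Ctnnd1 was lost without mouse 2, 3 or 4, and so was that of Cgn.

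Salt, bicarbonate and mineral transport gave a mixed picture. Of 18 genes of salt, water and bicarbonate transport, 12 were called higher and 2 lower, with a median log2 change of 0.61, and without the mouse term 5 were higher and 0 lower. For all genes the shares were 9.20% higher and 5.72% lower. Guca2b, which encodes uroguanylin, a luminal peptide that stimulates fluid secretion, had 3856, 2812, 3635 and 3276 CPM in V2, against 1982, 1089, 1949 and 1442 CPM in V1 (log2 change 1.09 ± 0.14, adjusted p = 1.5e-06). The related guanylin gene Guca2a, singled out after its values were seen, went the other way, with 803, 841, 956 and 1005 CPM in V2, against 1176, 1306, 1966 and 1101 CPM in V1 (log2 change -0.61 ± 0.16, adjusted p = 0.0099), a call lost without mouse 2 or 3. The other member called lower was Kcne3, a subunit of a basolateral potassium channel, with 42.2, 49.7, 19.7 and 15.7 CPM in V2, against 66.9, 87.5, 37.7 and 36.9 CPM in V1 (log2 change -0.86 ± 0.19, adjusted p = 0.002). Clca4b (log2 change 1.04 ± 0.14, adjusted p = 2.6e-06) and the bicarbonate carrier Slc4a4 (log2 change 1.20 ± 0.23, adjusted p = 0.00037) were higher. Of 16 mineral absorption genes 7 were called higher and 0 lower with a median of 0.25, but 2 to 4 when a mouse was left out and 0 without the mouse term. With a mouse left out 5.84% to 6.31% of all genes were called higher. Slc34a2, a phosphate carrier, had 32.1, 66.3, 216 and 202 CPM in V2, against 13.7, 23.4, 89.1 and 94.5 CPM in V1. Its level differed more between mice than between zones, with mice 3 and 4 far above mice 1 and 2 (log2 change 1.22 ± 0.29, adjusted p = 0.0094), and the call was lost without mouse 2 or 3. The folate carrier Slc46a1 (log2 change 0.86 ± 0.19, adjusted p = 0.0023) lost its call without mouse 1 or 2, the zinc carrier Slc39a5 (log2 change 0.54 ± 0.14, adjusted p = 0.0088) without mouse 1, and the calcium pump Atp2b1 (log2 change 0.81 ± 0.20, adjusted p = 0.0049) without mouse 4. Fth1, ferritin heavy chain, had 4498, 3116, 6686 and 7348 CPM in V2, against 3265, 2533, 5299 and 5741 CPM in V1 (log2 change 0.36 ± 0.11, adjusted p = 0.025), and its call was lost without mouse 1, 3 or 4.

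Enzymes that handle foreign compounds were higher in V2: of 28 xenobiotic and glutathione genes, 19 were called higher and 1 lower, with a median log2 change of 0.67. Without the mouse term 3 were higher and 0 lower. Among all genes 9.20% were called higher and 5.72% lower, so the 1 lower call of the list did not exceed that share. Cyp2b10, a cytochrome P450, had 58.1, 33.2, 149 and 127 CPM in V2, against 14.8, 13.2, 58.2 and 45.2 CPM in V1. Mice 3 and 4 were above mice 1 and 2 in both zones, and the zones overlapped between mice (log2 change 1.50 ± 0.17, adjusted p = 2.2e-07). Cyp2d26 (log2 change 1.29 ± 0.13, adjusted p = 2.7e-08), Cyp3a13 (log2 change 1.01 ± 0.14, adjusted p = 5.6e-06) and the sulfotransferase Sult1b1 (log2 change 0.93 ± 0.13, adjusted p = 3.2e-06) rose too. These P450 genes belong to families of close copies, and how reads shared by copies were counted is not given in the sources used here, so each single member is uncertain. The member called lower was Gsta4, a glutathione transferase (log2 change -0.78 ± 0.16, adjusted p = 0.0012). Of 8 vitamin A genes, 4 were called higher and 0 lower, with a median of 1.03, and 3 without the mouse term. Rbp2, which carries retinol inside the enterocyte, had 192, 281, 345 and 362 CPM in V2, against 83.8, 111, 179 and 151 CPM in V1, with no V1 library above the lowest V2 library (log2 change 1.18 ± 0.14, adjusted p = 2.5e-07). The retinol dehydrogenase Rdh7 (log2 change 1.05 ± 0.20, adjusted p = 0.00074) and the retinal dehydrogenase Aldh1a1 (log2 change 1.09 ± 0.17, adjusted p = 2.9e-05) were higher in 4 of 4 mice. Bco1, the enzyme that splits beta-carotene, was low, at 12.8, 2.86, 9.08 and 5.4 CPM in V2, against 3.69, 1.14, 1.86 and 2.97 CPM in V1 (log2 change 1.58 ± 0.41, adjusted p = 0.0077), and its call was lost without mouse 1 or 3. In the purine list 5 of 12 were called higher and 0 lower, with a median of 0.43, against 9.20% of all genes called higher. The count was 1 without the mouse term and 2 without mouse 3, where 1.43% and 5.84% of all genes were called higher. Gda, guanine deaminase, had 234, 209, 406 and 416 CPM in V2, against 63.8, 60.6, 202 and 171 CPM in V1, with no overlap (log2 change 1.46 ± 0.14, adjusted p = 9e-09). The concentrative nucleoside carrier Slc28a1 had 34.3, 20.6, 28 and 27 CPM in V2, against 15.8, 5.72, 14.8 and 8.32 CPM in V1 (log2 change 1.30 ± 0.21, adjusted p = 5.2e-05). Dnase1, a secreted nuclease outside the list, had 245, 136, 255 and 299 CPM in V2, against 61.1, 57.2, 88.5 and 104 CPM in V1 (log2 change 1.57 ± 0.20, adjusted p = 1.3e-05).

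Among 28 enterocyte transcription factor genes, 5 were called higher and 1 lower, with a median log2 change of 0.11. Of all genes 9.20% were called higher and 5.72% lower, so the 1 lower call did not exceed the share over all genes. In the list 3 were called higher without the mouse term or without mouse 1, against 1.43% and 6.31% of all genes. Maf, a basic leucine zipper factor, had 322, 66.9, 154 and 192 CPM in V2, against 43.7, 28, 66.8 and 79.1 CPM in V1. Mouse 1 had the widest gap, and the V2 library of mouse 2 lay below the V1 library of mouse 4 (log2 change 1.69 ± 0.32, adjusted p = 0.002). Cdx1, a homeobox factor of the intestinal lineage, was the member called lower, at 249, 278, 175 and 193 CPM in V2, against 374, 435, 255 and 231 CPM in V1 (log2 change -0.51 ± 0.12, adjusted p = 0.0036). Elf3, an epithelial factor, had 332, 259, 403 and 431 CPM in V2, against 342, 404, 410.1 and 485 CPM in V1 and was not called (adjusted p = 0.23). Other members called higher were Creb3l3, given above, Esrra (log2 change 0.44 ± 0.11, adjusted p = 0.0062) and Smad7 (log2 change 0.60 ± 0.21, adjusted p = 0.048). The call of Esrra was lost without mouse 1 and that of Smad7 without any 1 of the 4 mice.

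Antigen presentation genes were in part higher in V2. Of 7 MHC class II genes 4 were called higher and 0 lower, with a median log2 change of 0.53, though 0 were called without the mouse term. The share of all genes called higher was 9.20%, and 1.43% without the mouse term. H2-Ab1, the class II beta chain, had 512, 585, 829.9 and 1103 CPM in V2, against 291, 441, 395 and 620.1 CPM in V1. Mouse 4 was highest in both zones, and the zones overlapped (log2 change 0.77 ± 0.13, adjusted p = 8.2e-05). H2-Aa (log2 change 0.86 ± 0.14, adjusted p = 3e-05) and H2-Eb1 (log2 change 0.68 ± 0.13, adjusted p = 0.0004) were higher in 4 of 4 mice, and H2-DMb1, which helps load peptides, in 3 of 4 (log2 change 0.53 ± 0.14, adjusted p = 0.01), a call lost without mouse 2, 3 or 4. Cd74, the invariant chain, had 466, 949.5, 493 and 757 CPM in V2, against 597, 702, 311 and 525 CPM in V1 and was not called (adjusted p = 0.24, but 0.034 without mouse 1). Of 22 class I and interferon genes 5 were called higher and 0 lower (median 0.26, 2 without the mouse term). B2m, the light chain of class I, had 2285, 1609.8, 2903 and 2856 CPM in V2, against 1231, 1244, 2183 and 1926 CPM in V1 (log2 change 0.55 ± 0.13, adjusted p = 0.0029). The class I genes H2-Q1 (log2 change 1.36 ± 0.16, adjusted p = 3.7e-07), H2-Q2 (log2 change 1.08 ± 0.15, adjusted p = 3e-06) and H2-K1 (log2 change 0.52 ± 0.13, adjusted p = 0.007) belong to a family of close copies, so their single values are uncertain. Of 15 antimicrobial and mucosal defence genes 3 were called higher and 0 lower (median 0.28, 0 without the mouse term), against 9.20% of all genes called higher. Without mouse 1, 3 or 4 the count was 2, where 5.84% to 6.31% of all genes were called higher. The calls of the main fit are these. Pigr, the receptor that carries immunoglobulin A across the cell, had a log2 change of 0.55 ± 0.14 (adjusted p = 0.0058, lost without mouse 3). The others were Nos2 (log2 change 1.22 ± 0.30, adjusted p = 0.005) and the lectin Reg3a (log2 change 0.55 ± 0.18, adjusted p = 0.038, lost without mouse 1, 3 or 4). Reg3b, another lectin of the family, had 23613, 26552, 35464 and 41400.2 CPM in V2, against 16386, 12670.4, 27717 and 28809.5 CPM in V1 and was not called (adjusted p = 0.081). It was higher in 4 of 4 mice, and was called higher in the fit of V2 and V1 alone (adjusted p = 0.0062), by DESeq2 (adjusted p = 0.046), by limma-voom (adjusted p = 0.031), with no filter (adjusted p = 0.00051) and without mouse 3 (adjusted p = 0.045). The fit with no filter gave other genes far smaller adjusted p as well, as given in the closing section. Reads of the Reg3 copies may be shared. Leukocyte genes summed to 15.4 to 110.6 UMIs per 1000000 in V2 and 8.6 to 69.1 in V1, 5 of 17 passed the filter and none was called. Ptprc, Cd3e and Cd8a were below the filter. The part of leukocytes in these results was not tested.

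Goblet cell genes were lower in V2. Of 26 tested, 25 were called lower and 0 higher, with a median log2 change of -0.91 and a background of 5.72% called lower, and 8 lay wholly below V1 against 2.70% of all genes. Summed, the 26 genes took 1.65%, 4.99%, 4.82% and 4.89% of the UMIs in V2, against 5.86%, 11.3%, 10.4% and 6.44% in V1. The share was lower in V2 in 4 of 4 mice, and the V2 libraries lay wholly below the V1 libraries. The share fell by 4.21 percentage points in mouse 1, fell by 6.34 in mouse 2, fell by 5.62 in mouse 3 and fell by 1.55 in mouse 4. The mean difference was -4.43 percentage points, and a two-sided exact sign-flip permutation test over the 4 mice gave p = 0.125, the smallest that 4 pairs allow. Muc2, the gel-forming mucin, had 294, 1277, 1289.9 and 1660 CPM in V2, against 1463, 3435, 2703 and 2074 CPM in V1. The V2 library of mouse 1 was far below the other V2 libraries, and the V1 library of mouse 1 lay within the V2 range (log2 change -1.24 ± 0.29, adjusted p = 0.0087). Tff3, a trefoil peptide secreted with the mucus, had 3636, 9609, 10364 and 10682 CPM in V2, against 11964, 23789.9, 23200.2 and 12639 CPM in V1 (log2 change -1.11 ± 0.28, adjusted p = 0.012). Zg16, a lectin of the mucus, had 6399, 17503, 22530.4 and 24137 CPM in V2, against 18621, 40896, 46358 and 28428 CPM in V1 (log2 change -1.01 ± 0.26, adjusted p = 0.012). Fcgbp, a protein of the mucus, had 641, 2869, 1902 and 2082 CPM in V2, against 3316, 6503, 3582 and 2602 CPM in V1 (log2 change -1.20 ± 0.27, adjusted p = 0.006). Lrrc26, a potassium channel subunit of secretory cells, had 29, 45.7, 36.3 and 51.3 CPM in V2, against 70.1, 109, 92.8 and 55.9 CPM in V1, and its zones did not overlap (log2 change -1.02 ± 0.20, adjusted p = 0.00073). The goblet cell regulators Spdef (log2 change -0.90 ± 0.21, adjusted p = 0.0033) and Foxa3 (log2 change -1.11 ± 0.18, adjusted p = 8.2e-05, outside the list) were lower in 4 of 4 mice, and so was Hepacam2 (log2 change -1.19 ± 0.20, adjusted p = 0.00021), also outside it. In bulk libraries fewer cells of a type and less RNA per cell cannot be told apart. The number called lower was 12 without mouse 2, 16 without mouse 3, 18 without mouse 1 and 0 without the mouse term, and Muc2, Tff3 and Zg16 lost their calls without mouse 2 or 3 and Fcgbp without mouse 2. In a fit of V2 and V1 alone 23 of the 26 were called lower, and Muc2 (adjusted p = 0.11) and Fcgbp (0.15) were not.

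**Figure D4:**
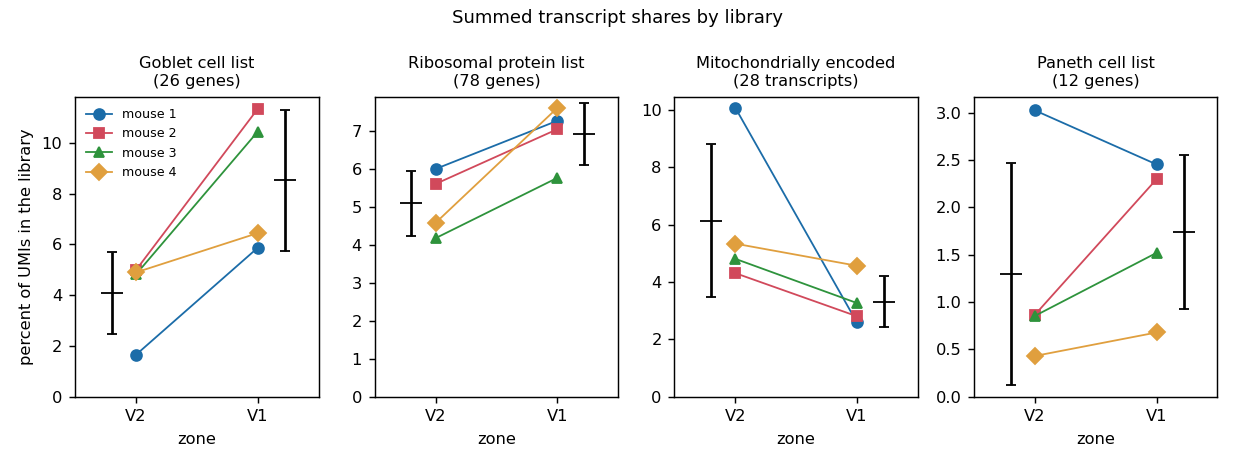
Share of UMIs taken by 4 groups of transcripts (percent of all UMIs of the library), V2 left and V1 right, lines joining the libraries of a mouse and black bars showing mean ± SD of 4 libraries. Goblet cell and ribosomal protein shares were lower in V2 in 4 of 4 mice and the mitochondrially encoded share was higher in 4 of 4, while the Paneth cell share was lower in 3 of 4.

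No Paneth cell gene was called among the 12 tested, with a median log2 change of -0.38, which was -0.97 without mouse 1 and -0.11 without mouse 2. They took 3.02%, 0.865%, 0.854% and 0.431% of UMIs in V2, against 2.45%, 2.297%, 1.52% and 0.679% in V1 (mean difference -0.44 percentage points, two-sided exact sign-flip permutation p = 0.375, smallest possible 0.125). The share was higher in V2 in mouse 1 and lower in the other mice. Defa24, a Paneth cell defensin with many close copies, had 14307, 4412, 4137 and 2249 CPM in V2, against 11036, 11045, 7365 and 3178 CPM in V1 (adjusted p = 0.64, but 0.0068 with no filter). Its log2 change was -0.53 ± 0.64 in the main fit and -0.51 with no filter, and mouse 1 went the other way. The fit with no filter also gave other genes far smaller adjusted p, as given in the closing section, so its calls are not read as differences. Paneth transcripts were counted in both zones although the cells themselves sit in the crypt base. None of 15 enteroendocrine genes was called (median -0.03). Gip, the hormone of K cells, had 1519, 1054, 1643 and 1080.2 CPM in V2, against 1505, 1110, 1367 and 1332 CPM in V1. None of 5 tested tuft cell genes was called. Dclk1 and Pou2f3 were below the filter. Ltc4s, a leukotriene enzyme on the tuft cell list, had 15.4, 9.15, 15.9 and 20.5 CPM in V2, against 7.38, 4, 14.2 and 10.7 CPM in V1 (adjusted p = 0.072, and 0.027 with no filter).

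Crypt and cell division genes were lower in V2 in part. Of 16 stem and crypt genes 3 were called lower and 0 higher (median log2 change -0.30), and of 31 cell division genes 5 were called lower and 0 higher (median -0.40), against 5.72% of all genes. Without the mouse term 0 of either list was called, and without mouse 3 or 4 the crypt list had 1. Over all genes 2.19% were called lower without mouse 3 and 2.73% without mouse 4. Smoc2, a stem cell gene, had 34.3, 44.6, 7.57 and 12.4 CPM in V2, against 54.3, 79.5, 23.5 and 22 CPM in V1. Mice 1 and 2 were above mice 3 and 4 in both zones, so that the zones overlapped although each mouse was lower in V2 (log2 change -0.88 ± 0.23, adjusted p = 0.0096). Sox9, a factor of crypt progenitors, had 23.3, 44.6, 9.83 and 4.86 CPM in V2, against 42.2, 74.9, 11.1 and 9.51 CPM in V1 (log2 change -0.71 ± 0.25, adjusted p = 0.048), and its call was lost without any 1 of the 4 mice. Prom1 had 41.8, 85.2, 47.7 and 39.4 CPM in V2, against 70.6, 104, 81.7 and 71.3 CPM in V1 (log2 change -0.65 ± 0.20, adjusted p = 0.023), lost without mouse 3 or 4. Among division genes Ccnb2, a mitotic cyclin, had 29, 33.2, 21.2 and 17.8 CPM in V2, against 48.5, 51.5, 28.5 and 46.4 CPM in V1 (log2 change -0.80 ± 0.19, adjusted p = 0.0038), lost without mouse 4. Mcm2 and Mcm6, subunits of the replicative helicase, had log2 changes of -0.995 ± 0.30 and -0.65 ± 0.18, and Pcna, the sliding clamp of DNA synthesis, -0.60 ± 0.18. Mcm6 lost its call without mouse 4, and Mcm2 and Pcna lost theirs without mouse 3 or 4. The count of division genes called lower ran from 0 without mouse 4 to 7 without mouse 1. Ifitm2, a membrane protein among the largest falls, had 64.2, 98.3, 28.7 and 28.1 CPM in V2, against 144, 158, 50.7 and 58.3 CPM in V1 (log2 change -0.93 ± 0.15, adjusted p = 4.1e-05), again with mice 1 and 2 above mice 3 and 4.

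Many genes of the ribosome were lower in V2. Of 78 cytosolic ribosomal protein genes 31 were called lower and 0 higher, with a median log2 change of -0.35, against 5.72% of all genes called lower. Their summed share of UMIs was 6.00%, 5.60%, 4.18% and 4.58% in V2, against 7.27%, 7.05%, 5.76% and 7.61% in V1, lower in 4 of 4 mice (mean difference -1.83 percentage points, two-sided exact sign-flip permutation p = 0.125, the smallest possible). Rps19 had 1306, 1342, 669 and 686 CPM in V2, against 2157, 1965, 1113 and 1083 CPM in V1. The levels of mice 1 and 2 were above those of mice 3 and 4 in both zones, and the gap between zones was similar in each mouse (log2 change -0.67 ± 0.13, adjusted p = 0.00057). Rpl35 had 611, 714, 253 and 263 CPM in V2, against 1094, 1151, 419 and 364 CPM in V1 (log2 change -0.70 ± 0.15, adjusted p = 0.0011), with the same order of mice. Within mice the median log2 difference of the 78 genes was 0.00 in mouse 1, -0.36 in mouse 2, -0.44 in mouse 3 and -0.61 in mouse 4. The medians are TMM-scaled and the shares are of all UMIs. In mouse 1 these measures differed, with a lower share in V2 but a median of 0.00. The TMM factors of that mouse were 1.01 in V2 and 1.20 in V1. Counts of calls were 58 without mouse 1, 21 without mouse 2, 5 without mouse 3, 7 without mouse 4 and 0 without the mouse term. Ribosomal protein genes have many processed copies, and of the 119 genes whose symbols name a ribosomal protein pseudogene, 34 were called lower and 0 higher. Pseudogenes of any kind made up 128 of the 534 genes called lower (23.97%) and 20 of the 858 called higher (2.33%), and reads of a gene and its copies may be shared. Of 36 translation factors 7 were called lower and 1 higher (median -0.23), 2 lower without mouse 3 or 4 and none without the mouse term. Over all genes 2.19% were called lower without mouse 3 and 2.73% without mouse 4. Eif3g had 106, 115, 90.0 and 95 CPM in V2, against 126, 181, 118 and 152 CPM in V1 (log2 change -0.50 ± 0.12, adjusted p = 0.0043). Eef1a1, an elongation factor, had 1498, 1189.6, 1158 and 1492 CPM in V2, against 1236, 1397, 1318 and 2152 CPM in V1 and was not called (adjusted p = 0.42).

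A few genes of protein folding and 2 of sterol synthesis were called lower in V2, and 1 of each list was called higher. Of 37 endoplasmic reticulum folding genes 5 were called lower and 1 higher (median log2 change -0.20), against 5.72% of all genes called lower, and 7 lay wholly below V1, against 2.70% of all genes. The count of lower calls was 2 without mouse 1 or 4, 3 without mouse 2 or 3, 9 in the fit of V2 and V1 alone and 12 with total UMIs. Over all genes 5.27% were called lower without mouse 1, 4.04% without mouse 2, 2.19% without mouse 3 and 2.73% without mouse 4. The shares were 6.79% in the fit of V2 and V1 alone and 8.78% with total UMIs. The folding count without mouse 1 was thus near the share of all genes. Txndc5, a disulfide isomerase, had 139, 241, 182 and 209 CPM in V2, against 265, 428, 329 and 291 CPM in V1, with no overlap (log2 change -0.77 ± 0.13, adjusted p = 0.0001). P4hb, another isomerase, also a subunit of the lipid-loading complex with Mttp, went up, with 1488, 1288, 2061 and 2003 CPM in V2, against 904, 965, 1516 and 1547 CPM in V1 (log2 change 0.48 ± 0.12, adjusted p = 0.0047), lost without mouse 1. In cholesterol synthesis 2 of 18 were called lower and 1 higher (median -0.29), and 4 were called lower with total UMIs. The shares of all genes were 5.72% lower and 9.20% higher, and counts this small are not read as a trait of the list. Fdft1, squalene synthase, had 26.4, 32.6, 27.2 and 32.4 CPM in V2, against 42.7, 61.2, 52 and 51.1 CPM in V1, with no overlap (log2 change -0.80 ± 0.17, adjusted p = 0.0014). Hmgcs1 (log2 change -0.45 ± 0.15, adjusted p = 0.041) and Sc5d (log2 change 0.43 ± 0.13, adjusted p = 0.018) each lost their calls in 3 of the 4 fits without 1 mouse.

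Mitochondrially encoded genes were higher in V2 in part. Of 11 mitochondrially encoded protein genes 7 were called higher and 0 lower (median log2 change 0.63), 4 without mouse 1 and 1 without the mouse term, whereas of 74 nuclear genes of oxidative phosphorylation 0 were called in either direction (median 0.04). The difference between the lists was not tested. All 28 mitochondrially encoded transcripts took 10.1%, 4.31%, 4.81% and 5.34% of UMIs in V2, against 2.59%, 2.81%, 3.27% and 4.57% in V1. The V2 library of mouse 1 was far above the other V2 libraries, and without that mouse each difference was 0.771 to 1.54 percentage points (4 mice: mean 2.83, two-sided exact sign-flip permutation p = 0.125, the smallest possible). This share counts only genes whose symbols begin with mt-. How reads shared with any copies of these genes were counted is not given in the sources used here. mt-Nd5, a subunit of complex I, had 338, 226, 213 and 289 CPM in V2, against 109, 152, 145 and 206 CPM in V1, with no overlap (log2 change 0.79 ± 0.15, adjusted p = 0.0004). mt-Cytb, of complex III, had 22125, 15576, 20310 and 23733 CPM in V2, against 9136, 10565, 15693 and 21244 CPM in V1 (log2 change 0.56 ± 0.18, adjusted p = 0.032), a call lost without mouse 1, 2 or 3. Of 12 glycolysis genes 7 were called higher and 0 lower (median 0.37), but 2 or 3 when any 1 mouse was left out and 0 without the mouse term. With a mouse left out 5.84% to 6.31% of all genes were called higher. Pkm had 798, 693, 776 and 869.7 CPM in V2, against 590.3, 436, 623 and 621 CPM in V1 (log2 change 0.46 ± 0.13, adjusted p = 0.013), lost without mouse 2 or 4, and Ldha was not called (adjusted p = 0.26). Of 19 fatty acid oxidation genes 2 were called higher and 0 lower (median 0.10), a share near the 9.20% of all genes, among them Hadh (log2 change 0.57 ± 0.11, adjusted p = 0.00073). Of 14 immediate early genes Ier2 was called lower (log2 change -0.51 ± 0.12, adjusted p = 0.0042) and Zfp36 higher (log2 change 0.60 ± 0.19, adjusted p = 0.037), the call of Zfp36 being lost without mouse 1, 3 or 4. Both counts were near the shares of all genes, 5.72% lower and 9.20% higher. Without the mouse term 0 of the fatty acid oxidation, immediate early, junction, endoplasmic reticulum and cholesterol synthesis genes were called.

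The step from V1 to V2 was set beside the next one, from V2 to V3, with which it shares the V2 libraries. For V3 minus V2 280 genes were called higher (3.00%) and 167 lower (1.79%). In the lower step 858 genes were called higher and 534 lower. No gene called in both steps changed direction: 212 were higher in both, 107 were lower in both, and 0 rose and then fell or fell and then rose. These are counts only, because the V2 libraries enter the 2 steps with opposite sign, and the overlap was not tested. A test of the difference between both steps over all genes called 0 genes, with 430 (4.61%) at an unadjusted p under 0.05, and DESeq2 and limma-voom also called 0. A gene not called there is not shown to have equal steps. By that unadjusted p, Mme led the genes whose lower step was the larger, with a log2 change of 1.70 from V1 to V2 and 0.66 from V2 to V3 (difference 1.04 ± 0.27, adjusted p = 1.0). Papss2, an enzyme of sulfate activation, had 1.05 and 0.29 (difference 0.76 ± 0.22). Ada, adenosine deaminase, was among the opposite cases without leading them, with 0.59 from V1 to V2 and 1.77 from V2 to V3 (difference -1.18 ± 0.49). Its unadjusted p in the test of the difference was 0.028, against 0.0037 for Parp12, and neither was called. Muc2 fell by 1.24 in the lower step and by 1.65 in the upper one, and Tff3 by 1.11 and 1.70, on the log2 scale. From V3 to V6 the mean goblet cell share ran between 1.07% and 1.22%, against 4.09% in V2 and 8.52% in V1.

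**Figure D5:**
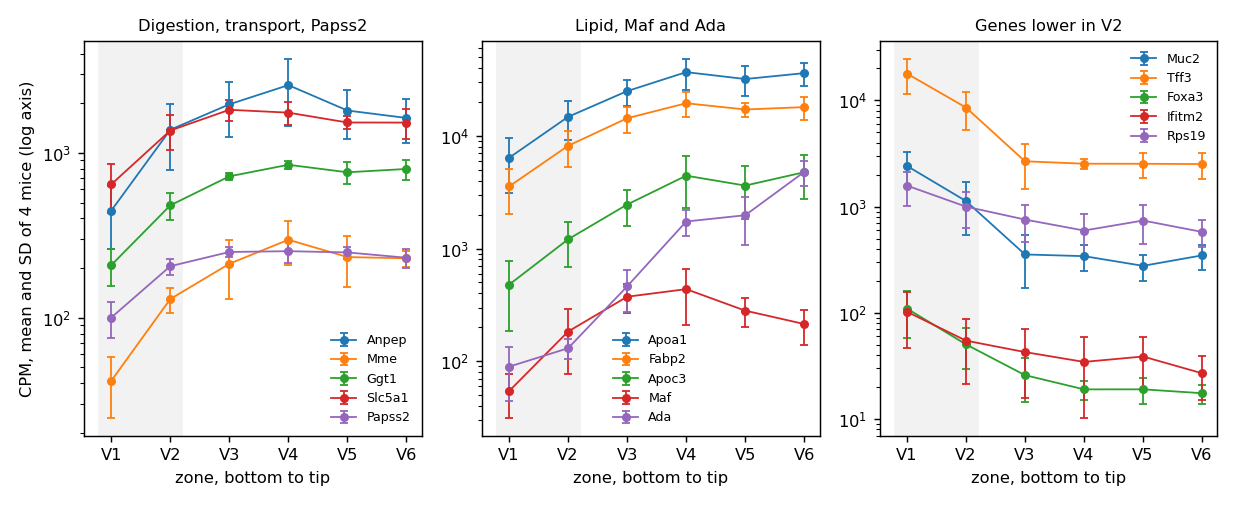
Level in all 6 zones, from V1 at the bottom to V6 at the tip, as mean and SD of 4 mice (CPM, log axis), with the zones of this comparison shaded. Anpep, Apoa1 and Fabp2 were higher in V2 than in V1 and had means in V3 above those in V2, Ada had 131 CPM in V2 and 462 CPM in V3, and Muc2, Tff3, Foxa3, Ifitm2 and Rps19 had lower means in V2 than in V1.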

How the data were processed

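Messenger RNA was measured in 24 libraries, 4 mice by 6 zones, and V2 was compared with V1. The authors deposited raw UMI counts per gene. The submitters' processing notes name bcl2fastq 2.15.0.4 for demultiplexing and GRCm38 as build. The sources used here give no aligner, annotation or filter. Libraries held 806541 to 2266261 UMIs (median 1502948.5). Of 17811 identifiers, 131 had no count and 17741 matched GENCODE M21, which gave coordinates.

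Counts were tested in R 4.3.3 with edgeR 4.0.16 (filterByExpr by zone with a minimum count of 10 and a minimum total of 15, TMM, robust glmQLFit, glmQLFTest), with zone and mouse as terms over all 24 libraries (15 residual degrees of freedom), which assumes 1 spread for all zones. Benjamini-Hochberg adjustment ran over the 9328 genes. An SE is the log2 change divided by the square root of F. CPM values are TMM-scaled, and a difference counted here is relative to the other genes of a library, so a large change in goblet cell transcripts moves the share of all others. Shares were compared by exact sign-flip permutation. DESeq2 1.42.0 and limma 3.58.1 served as alternatives, together with those listed in the closing section. The fit was also run on simulated counts, with spread taken from a fit that set V2 and V1 equal. Of genes given a true log2 change of 1, 54 of 99 were called in the right direction, and of those given 0.5, 6 of 100. Of 9055 unchanged genes 1 was called. A gene not called is therefore not shown to be unchanged. Figures and summaries used Python 3.11.15, numpy 2.4.6, pandas 2.3.3 and matplotlib 3.10.9.

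Mouse numbers pair the libraries, because the labels give each mouse 1 library per zone. Deviations from the zone means correlated at r = 0.381 to 0.536 between V2 and V1 of the same mouse (4 of 4 above 0.1). Between different mice r ran from -0.383 to 0.283, so some of those pairs also lay above 0.1. No 2 libraries of a zone were copies: the chi-square per degree of freedom ran between 3.77 and 32.7 over 12 pairs, where sampling noise alone gives about 1.

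The gene lists and the comparison were chosen with earlier results of these data known. Genes were named by rule: the 14 largest rises and falls in log2 change, from called genes that averaged 50 CPM or more with 1 direction in 4 mice, up to 4 called members per list by adjusted p and the member with the highest mean, 6 per direction for the difference of steps, and Nt5e and Dpp4. Some genes that met these rules are not reported here. Others are said to be chosen after their values were seen. List members missing from the table, or on more than 1 identifier, were not analysed here. Promoter windows are RefSeq's, on GRCm38.p6.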

Additional observations from a re-analysis of the deposited data

Results flagged for a closer look

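Within each zone the highest and the lowest of the 4 libraries were compared with the rest of their group, by the gap to the nearest library as a part of the group's range. Of 286 groups of 4 (each named gene and each summed share in V2 and in V1), 10 held a library past the 95% limit, and chance flags about 1 group in 20.

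In V2 of mouse 1, the goblet cell share was 1.653% of UMIs against 4.817% to 4.985% in the other V2 libraries, the Paneth cell share was 3.022% against 0.4308% to 0.865%, and Tff3 had 3636 CPM against at least 9609 CPM. In V2 of mouse 2, H2-Q1 had 43.45 CPM against 95.01 to 99.11 CPM, Sult1b1 had 350.4 CPM against 559.8 to 593.3 CPM, and Zfp36 had 52.02 CPM against 80.49 to 85.83 CPM. In V2 of mouse 3, Eif3e had 65.82 CPM against 94.32 to 99.4 CPM. In V2 of mouse 4, Slc6a19 had 106.3 CPM against 87.46 to 89.28 CPM. Among the V1 libraries, Fxyd3 had 72.73 CPM in mouse 1 against 110.6 to 117.5 CPM in the others, and Tstd1 had 72.63 CPM in mouse 2 against 105.2 to 111.2 CPM.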

How the results depend on the processing

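Mouse as a replicate block had the largest effect on the counts. Without it 133 genes were called higher in V2 and 8 lower, and of 139 named genes 58 kept their call or stayed uncalled while 81 lost it. No call of a named gene changed direction under any of the 15 alternatives run. Among the uncalled, Epcam (0.09) had a log2 change of -0.0015 with total UMIs and -0.0034 at 50 CPM or more, and Gip (-0.03) had 0.04 without mouse 4. Genes called higher numbered 504 among those with a mean of at least 50 CPM, 566 after thinning to the smallest library and 545 to 589 without 1 mouse. Genes called lower numbered 819 with total UMIs and 204 to 492 without 1 mouse. With DESeq2, limma-voom, DESeq2 size factors, scaling without goblet cell genes, removal of mitochondrially encoded genes, no filter, or V2 and V1 alone, both counts stayed within 1.5 times the main ones. With no filter, however, the edgeR test gave some genes far smaller adjusted p at nearly the same log2 change. For Muc2 it was 7.2e-14 against 0.0087 in the main fit (log2 changes -1.21 and -1.24), and for Maf 2.0e-23 against 0.002 (1.71 and 1.69). The share of calls that were higher was 49.8% at 50 CPM or more and 94.3% without the block, against 61.6%. The difference of steps called 23 genes with no filter and 0 otherwise. The goblet cell share difference of -4.43 points had p = 0.0286 by an exact unpaired permutation test, which ignores the block. Fits without 1 mouse lost the call of 20 to 30 named genes each. List counts under these settings were added after seeing the data. At these depths low genes such as Nt5e or Bco1 rest on few UMIs per library.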

Other observations

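Genes outside every list used above were also read through, and those named here were chosen after their values were seen (values are mean ± SD over 4 mice). Among those higher in V2 in 4 of 4 mice were several secreted proteins. Leap2, a liver-enriched antimicrobial peptide and ghrelin receptor antagonist, had 62.1 ± 19.5 CPM in V2 and 22.5 ± 8.01 CPM in V1 (log2 change 1.46 ± 0.16, adjusted p = 1.2e-07). Spink1, a trypsin inhibitor, had 2325 ± 709.7 CPM in V2 and 1217 ± 511 CPM in V1 (log2 change 0.96 ± 0.15, adjusted p = 2.5e-05), Prap1, a proline-rich acidic protein, had 3755 ± 637 CPM in V2 and 2312 ± 583 CPM in V1 (log2 change 0.72 ± 0.12, adjusted p = 7.6e-05), and Sepp1, the selenium carrier selenoprotein P, had 1189 ± 294 CPM in V2 and 495 ± 164 CPM in V1 (log2 change 1.27 ± 0.16, adjusted p = 2.8e-06). Pepd, the cytosolic dipeptidase prolidase, had 951 ± 340.0 CPM in V2 and 449 ± 208 CPM in V1 (log2 change 1.12 ± 0.15, adjusted p = 2.4e-06), and Lap3, leucine aminopeptidase, had 271 ± 64.4 CPM in V2 and 153 ± 29.1 CPM in V1 (log2 change 0.81 ± 0.13, adjusted p = 2.4e-05). Amn, a subunit of the vitamin B12 receptor, had 324 ± 88 CPM in V2 and 168 ± 45.5 CPM in V1 (log2 change 0.95 ± 0.13, adjusted p = 2.4e-06). The regulators Ppargc1a, a coactivator of mitochondrial genes (log2 change 1.21 ± 0.19, adjusted p = 1.7e-05), and Sgk1, a kinase that acts on ion transport (log2 change 1.21 ± 0.20, adjusted p = 5e-05), and the thyroid hormone deiodinase Dio1 (log2 change 1.27 ± 0.19, adjusted p = 1.5e-05) rose by more than a log2 of 1.

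Among unlisted genes lower in V2 in 4 of 4 mice, Lgals2, a galectin, had 4302 ± 863 CPM in V2 and 7135 ± 1372 CPM in V1 (log2 change -0.74 ± 0.13, adjusted p = 0.00022). The actin-sequestering thymosins were both lower, with 523 ± 60.1 CPM in V2 and 827 ± 203 CPM in V1 for Tmsb4x (log2 change -0.65 ± 0.13, adjusted p = 0.00088) and 305 ± 69.8 CPM in V2 and 504 ± 118 CPM in V1 for Tmsb10 (log2 change -0.74 ± 0.16, adjusted p = 0.0017). Tspan8, a tetraspanin, had 357 ± 56.8 CPM in V2 and 535 ± 75.4 CPM in V1 (log2 change -0.58 ± 0.12, adjusted p = 0.00059), and Pglyrp1, a peptidoglycan recognition protein, had 57.5 ± 19.3 CPM in V2 and 103 ± 33.8 CPM in V1 (log2 change -0.86 ± 0.18, adjusted p = 0.0012). Wars, tryptophanyl-tRNA synthetase, had 76.4 ± 20.6 CPM in V2 and 134 ± 47.9 CPM in V1 (log2 change -0.81 ± 0.14, adjusted p = 0.00011), and Muc3a, a membrane mucin, had 19.2 ± 8.38 CPM in V2 and 37.8 ± 12.3 CPM in V1 (log2 change -0.97 ± 0.22, adjusted p = 0.0026).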
